A study of Mus musculus with 8 samples.

Results

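The beta chain of the T cell receptor is encoded by variable (V), diversity (D), joining (J) and constant (C) segments of 1 locus on mouse chromosome 6, and it was followed here through the counts of 53 Ensembl genes whose symbols begin with Trbv, Trbd, Trbj or Trbc, of 52636 genes in the table. They comprised 35 V segments, of which 13 are annotated as pseudogenes, 2 D segments, 14 J segments and 2 constant regions. The samples were immune cells from spleen and lymph node of TCR1640 and SJL/J mice aged 35 to 55 days, before any signs of disease. All groups shared a TH1/TH17 stimulation, a culture of 4 days with IL-23 (20 ng/ml), TGF-β (4 ng/ml), IL-6 (20 ng/ml), IL-12 (3 ng/ml) and anti-CD3 (1 μg/ml). TCR1640 mice are SJL/J animals with a transgenic receptor for a myelin antigen, and SJL/J mice are the strain without it. Groups were TCR1640 males, TCR1640 females, SJL/J males and SJL/J females, each with 2 columns of counts. The promoter of the transgene, and whether a group's columns came from separate or pooled mice, are not stated in the sources used here.

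A developing T cell joins 1 D to 1 J segment and then 1 V segment to both, so that a mature cell transcribes a single V segment in its productive beta chain message, spliced to Trbc1 or Trbc2. A functional rearranged beta chain stops further V joining on the other allele, which is called allelic exclusion, and rearranged beta transgenes act in the same way. The share of V counts in each segment of a bulk library can therefore follow the V usage of its T cells, as far as the counted reads come from that message. The TCR1640 receptor is described as using Vβ4, the older name that RefSeq pairs with Trbv2 as Tcrb-V4. The wider spread of V counts below was found in the libraries labelled TCR1640 and the narrower one, led by Trbv2, in those labelled SJL/J. This is the opposite of what the strain names stand for, so that every strain direction below belongs to the library labels only.

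Summed counts were 10005975 and 7937262 in the libraries labelled TCR1640 male and female and 7678860 and 8378659 in the SJL/J-labelled male and female libraries, from columns of 3765291 to 5116467 counts. The 53 segments took 0.0243% to 0.0398% of each column. Columns of 1 group came close to sampling noise, with a chi-square per degree of freedom of 1.05 to 1.08 over all genes, against 3.12 to 17.1 between groups. They were summed and counted as 1 sample, so a comparison of 2 groups has neither replicates nor a test, and intervals below are exact 95% intervals for counting error only. Over the segments themselves the chi-square per degree of freedom was 0.51 to 2.23 between the columns of a group. Tsix, which lies on the strand opposite to Xist, had 3553 to 3935 counts in female columns where Xist had 668 to 784, so the strand setting of the counting is in doubt. Male columns had 25 to 44 Xist and 0 or 1 Tsix counts. If the setting was reversed, the segment counts come from reads off the annotated strand. Every share and level below would then describe those reads. Whether all libraries would be touched alike was not tested. No segment overlaps an annotated gene on the opposite strand.

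Among V segments, Trbv2 was the one whose share differed most between the groups. Its V exon, which encodes most of the variable domain up to the conserved cysteine before the junction, is shown in full because Trbv2 leads the V counts of 3 of the 4 groups. It lies at chr6:41047701-41047995 on the plus strand of GRCm38, from GENCODE M21, and capitals mark the codon of that cysteine.
Trbv2: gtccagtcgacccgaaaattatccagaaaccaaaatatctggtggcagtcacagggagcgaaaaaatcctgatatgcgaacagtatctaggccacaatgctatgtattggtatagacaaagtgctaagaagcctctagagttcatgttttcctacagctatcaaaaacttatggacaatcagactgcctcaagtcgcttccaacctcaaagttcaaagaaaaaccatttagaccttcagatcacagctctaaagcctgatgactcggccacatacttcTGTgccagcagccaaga
The other V segments that led the counts outside Trbv2 are shown by the last 60 bases of their V exons, which run up to the site of joining: Trbv1 at chr6:40891826-40891885, Trbv3 at chr6:41048769-41048828, Trbv19 at chr6:41178989-41179048, Trbv24 at chr6:41218498-41218557 and Trbv29 at chr6:41271822-41271881, all on the plus strand. Capitals mark the cysteine codon and, in Trbv24, also a stop codon in frame with it.
Trbv1: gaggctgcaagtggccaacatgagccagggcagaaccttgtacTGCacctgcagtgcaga
Trbv3: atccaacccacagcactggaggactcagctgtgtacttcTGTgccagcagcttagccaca
Trbv19: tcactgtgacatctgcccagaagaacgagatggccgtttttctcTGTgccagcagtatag
Trbv24: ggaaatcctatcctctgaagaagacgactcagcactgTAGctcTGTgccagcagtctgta
Trbv29: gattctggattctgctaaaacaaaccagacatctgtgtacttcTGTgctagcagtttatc

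Trbv2 held 20.6% of V counts in the library labelled TCR1640 male (interval 17.8 to 23.5) and 19.7% in TCR1640 female (16.6 to 23.1), against 63.1% in SJL/J male (56.7 to 69.1) and 58.3% in SJL/J female (51.5 to 65.0). By column the shares were 18.3% and 22.7%, then 21.9% and 17.6%, in the male and female columns labelled TCR1640. They were 61.1% and 65.3%, then 57.5% and 59.2%, in those labelled SJL/J. All 4 SJL/J-labelled columns therefore lay above all 4 TCR1640-labelled ones, and male and female columns overlapped under the TCR1640 labels. Both male columns lay above both female ones under the SJL/J labels, but the intervals of these columns overlapped. The columns of a group are counted here as 1 sample, and how many of all genes separate in this way was not counted. A two-sided exact permutation test of 2 samples against 2 cannot go below p = 0.333. Dividing each count by the exon length of its segment gave lower shares, of 15.8% and 15.02% in the male and female libraries labelled TCR1640 and 54.3% and 49.99% in those labelled SJL/J, with the same order.

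The counts of Trbv2 itself differed far less than its share. They were 71 and 93 in the TCR1640-labelled male columns, 64 and 55 in TCR1640 female, 80 and 77 in SJL/J male and 65 and 61 in SJL/J female. In CPM, which scales the counts of a library to a common total, its level was 16.4 and 14.99 in the male and female libraries labelled TCR1640, and 20.4 and 15.04 in those labelled SJL/J. The 4 levels lay close together, and the log2 ratio of TCR1640 over SJL/J labels had an interval that included equality in males (-0.27, -0.59 to 0.06) and in females (0.01, -0.36 to 0.39). The summed V counts outside Trbv2 were 634 and 486 in the libraries labelled TCR1640 male and female, against 92 and 90 in those labelled SJL/J. These gave levels of 63.4 and 61.2 CPM against 11.98 and 10.7 CPM, a log2 ratio of 2.45 in males (2.13 to 2.78) and 2.53 in females (2.20 to 2.87). On this scale the difference in Trbv2 share thus stood in the counts of the other V segments, while Trbv2 differed between strain labels by less than its counting error.

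**Figure D1:**
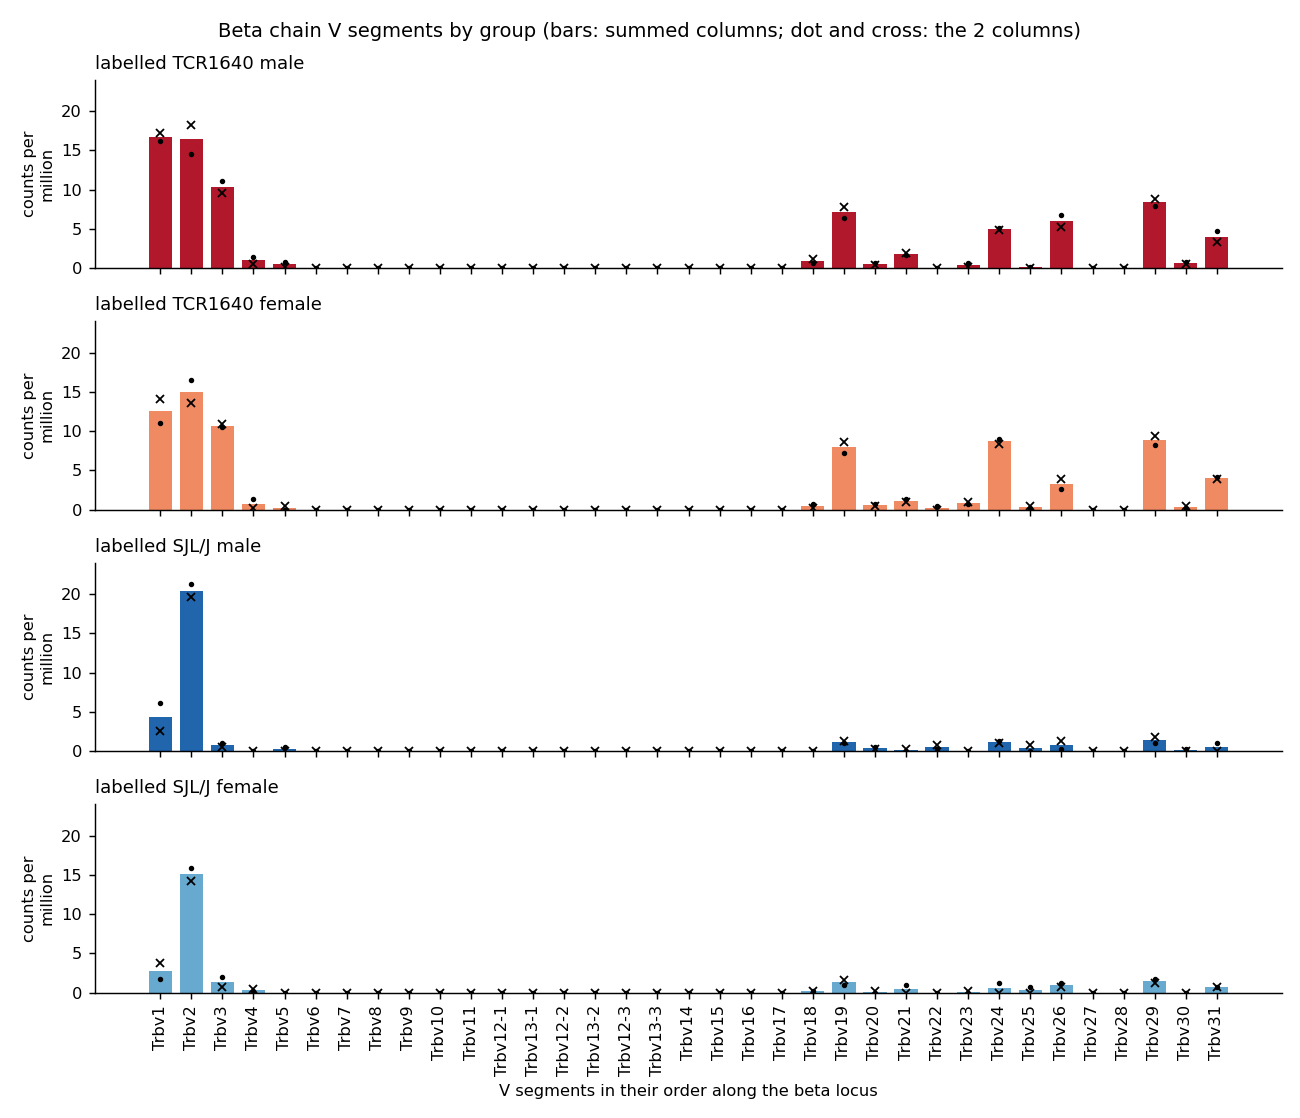
Levels of the 35 V segments in CPM, in their order along the locus, with 1 panel for each group; bars are the summed columns, and the dot and the cross are the 2 single columns. Trbv2 lies between 14.99 and 20.4 CPM in all 4 libraries, while the sum of the others is 61.2 to 63.4 CPM under TCR1640 labels and 10.7 to 11.98 CPM under SJL/J labels.

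7 other V segments took at least 5% of V counts in some group. Trbv1 (older name Tcrb-V2), the most 5′ V segment of the locus, had 79 and 88 counts in the TCR1640-labelled male columns and 43 and 57 in TCR1640 female, against 23 and 10 in SJL/J male and 7 and 16 in SJL/J female. Trbv3 (Tcrb-V16), which lies next to Trbv2, had 54 and 49, then 41 and 44, in male and female columns labelled TCR1640, against 4 and 2, then 8 and 3, in those labelled SJL/J. Neither segment's columns overlapped between strain labels, in counts or in CPM. How many of all genes separate in this way was not counted, and the columns of a group differ by little more than sampling noise. Their V shares were 20.9% and 16.5% for Trbv1 in the male and female libraries labelled TCR1640, against 13.3% and 10.6% in those labelled SJL/J. For Trbv3 they were 12.9% and 14.05%, against 2.41% and 5.09%. Trbv1 thus stood beside Trbv2 as a leading V segment under the TCR1640 labels, and second to it by a wide margin under the SJL/J labels.

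Trbv29 (Tcrb-V7) had 39 and 45 counts in the TCR1640-labelled male columns and 32 and 38 in TCR1640 female, against 4 and 7 in SJL/J male and 7 and 5 in SJL/J female. Trbv19 (Tcrb-V6) had 31 and 40, then 28 and 35, in male and female columns labelled TCR1640, against 4 and 5, then 4 and 7, in those labelled SJL/J. Both segments were lower in every SJL/J-labelled column than in any TCR1640-labelled one, again without a count of such genes over the whole table. Trbv31 (Tcrb-V14) is the V segment that lies downstream of Trbc2 on the minus strand and joins by inversion. It had 23 and 17 counts, then 16 and 16, in the male and female columns labelled TCR1640, against 4 and 0, then 3 and 3, in those labelled SJL/J, the same order of labels as for the segments upstream of the D segments.

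Among V segments with at least 20 counts, Trbv24 and Trbv26 differed most between the sexes in the libraries labelled TCR1640. Trbv26 (Tcrb-V3) had 33 and 27 counts in male columns and 10 and 16 in female columns under that label, against 1 and 5, then 5 and 3, in male and female columns labelled SJL/J. Trbv24 (Tcrb-V17) had 25 and 25, then 35 and 34, in the male and female columns labelled TCR1640, against 5 and 4, then 5 and 0, in those labelled SJL/J. Trbv24 is annotated as a pseudogene, and the GRCm38 V exon, whose end is printed above, carries 1 stop codon in frame with its cysteine. Vβ17a, the product of this segment, is known as functional in SJL mice, and the counts do not tell which letter these libraries carry.

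On TMM-scaled library sizes, the log2 ratio of TCR1640 over SJL/J labels of these 7 segments ran from 2.01 (Trbv1) to 3.77 (Trbv3) in males and from 1.80 (Trbv26) to 3.88 (Trbv24) in females. Each was past a 2-fold rule in both sexes, which asks for a log2 ratio of at least 1 in size, an interval that excludes equality and at least 20 counts over both groups. In males 7 of the 16 segments with enough counts were higher, against a background of 5.72% of all genes, and 1 was lower, against 6.29%. In females 7 of 14 were higher, against 4.24%, and 0 were lower, against 5.31%. A segment can reach 20 counts through the group where it is high, so these counts describe the segments measured and not the whole family. Left with 1 column of each group, 6 or 7 segments were higher in males and 5 in females. Where a call was missing, for Trbv31 and in females also for Trbv26, the segment had fewer than 20 counts and could not be called.

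The additive fit over 4 summed samples (edgeR quasi-likelihood test, strain and sex as terms, 2 samples against 2) tested 15 of the 53 segments. By it 9 rose under the TCR1640 labels and 0 fell, against 13.4% of 17261 genes higher and 13.1% lower. A segment can pass the filter on low counts through the TCR1640-labelled libraries alone, as Trbv31 may with 4 and 6 counts under the SJL/J labels, so this count too describes the segments tested and not the family. No segment was lower at an unadjusted p under 0.05 in edgeR, and DESeq2 called 7 higher and 0 lower. The 9 were the 7 V segments, with log2 changes between 2.09 and 3.34, and both constant regions. Trbv3 changed most (log2 change 3.34, SE 0.35, edgeR adjusted p = 1.53e-19), and Trbv26 had one of the least firm V calls (2.40, SE 0.45, edgeR adjusted p = 1.74e-06), which DESeq2 did not make. Trbv1 rose by a log2 change of 2.09 (SE 0.25, edgeR adjusted p = 4.28e-15). Trbv2 did not pass (log2 change -0.14, SE 0.18, edgeR adjusted p = 0.638). The residual of this fit is 1 degree of freedom from sex differences that differed between strain labels, and neither its SE nor its p-values reflect variation between mice.

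**Figure D2:**
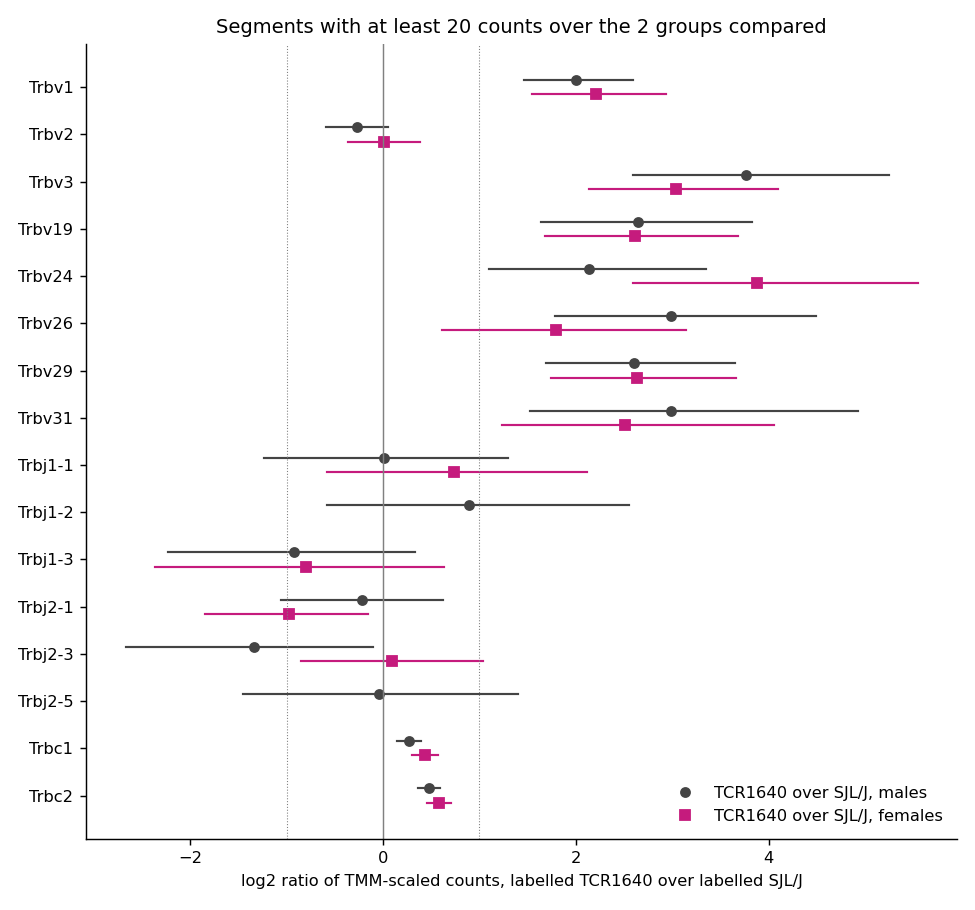
Log2 ratios of TCR1640 over SJL/J labels for the segments with at least 20 counts, in males and in females, with exact 95% intervals for counting error. The 7 V segments other than Trbv2 lie between 1.80 and 3.88, while Trbv2 lies at -0.27 in males and 0.01 in females.

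The effective number of V segments (1 divided by the sum of squared shares) was 7.42 (6.94 to 7.97) in the library labelled TCR1640 male and 7.80 (7.31 to 8.35) in TCR1640 female. It was 2.37 (2.04 to 2.83) in SJL/J male and 2.75 (2.31 to 3.40) in SJL/J female, with delta-method intervals for counting error. Single columns gave 6.94 to 7.88 under the TCR1640 labels and 2.26 to 2.84 under the SJL/J labels, without overlap. With Trbv2 left out, the effective number was 6.82 (6.29 to 7.46) and 7.20 (6.71 to 7.77) in the male and female libraries labelled TCR1640, against 5.64 (4.28 to 8.29) and 7.5 (6.02 to 9.94) in those labelled SJL/J. The intervals then overlapped in both sexes. The measure that separated the labels therefore rested on the Trbv2 share.

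The number of V segments seen at all differed little. 16 and 17 V segments had counts in the male and female libraries labelled TCR1640 and 14 in each labelled SJL/J. At a common 216 V counts the expected numbers were 14.4 and 15.2 under the TCR1640 labels, in males and females, and 13.7 and 14 under the SJL/J labels. The libraries labelled SJL/J thus held nearly as many V segments as the others, most of them at few counts.

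Shares were also set beside each other among V counts outside Trbv2. Trbv1 then held 26.3% and 20.6% in the male and female libraries labelled TCR1640, against 35.9% and 25.6% in those labelled SJL/J. Trbv3, the neighbour of Trbv2, held 16.2% (13.5 to 19.4) in males labelled TCR1640, against 6.52% (2.43 to 13.7) in males labelled SJL/J. In females it held 17.5% (14.2 to 21.2) against 12.2% (6.26 to 20.8). Trbv24 held 7.89% against 9.78% in males, and 14.2% (11.2 to 17.6) against 5.56% (1.83 to 12.5) in females. Trbv3 thus had the smaller share under the SJL/J labels in both sexes, and Trbv24 in females. Intervals overlapped at their ends for Trbv3 in males and Trbv24 in females, and broadly for Trbv3 in females. In males the intervals of the log2 ratio of TCR1640 over SJL/J labels barely missed each other for Trbv1 (1.46 to 2.59) and Trbv3 (2.60 to 5.25). These were the lowest and the highest ratio of the named V segments other than Trbv2. In females the intervals of the same pair overlapped (1.55 to 2.94 and 2.13 to 4.10). Whether the V segments kept 1 ratio was not tested. Trbv29 held 13.2% and 14.4% in the male and female libraries labelled TCR1640, against 11.96% and 13.3% in those labelled SJL/J. Trbv19 held 11.2% and 13.0%, against 9.78% and 12.2%. Trbv26 held 9.46% and 5.35%, against 6.52% and 8.89%, and Trbv31 held 6.31% and 6.58%, against 4.35% and 6.67%. Each interval in the SJL/J-labelled libraries is wide, since they hold 92 and 90 such counts. The distance between whole compositions, taken as the sum of absolute share differences divided by 2, was 45.9% between strain labels in males and 40.6% in females over all V segments. Without Trbv2 it was 22.7% in males and 17.5% in females. Between the columns of a group it was then 9.15% and 8.71% for males and females labelled TCR1640, and 38.9% and 40.5% for males and females labelled SJL/J. Few counts raise this distance by themselves, so values at different depths are given side by side and not ranked.

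**Figure D3:**
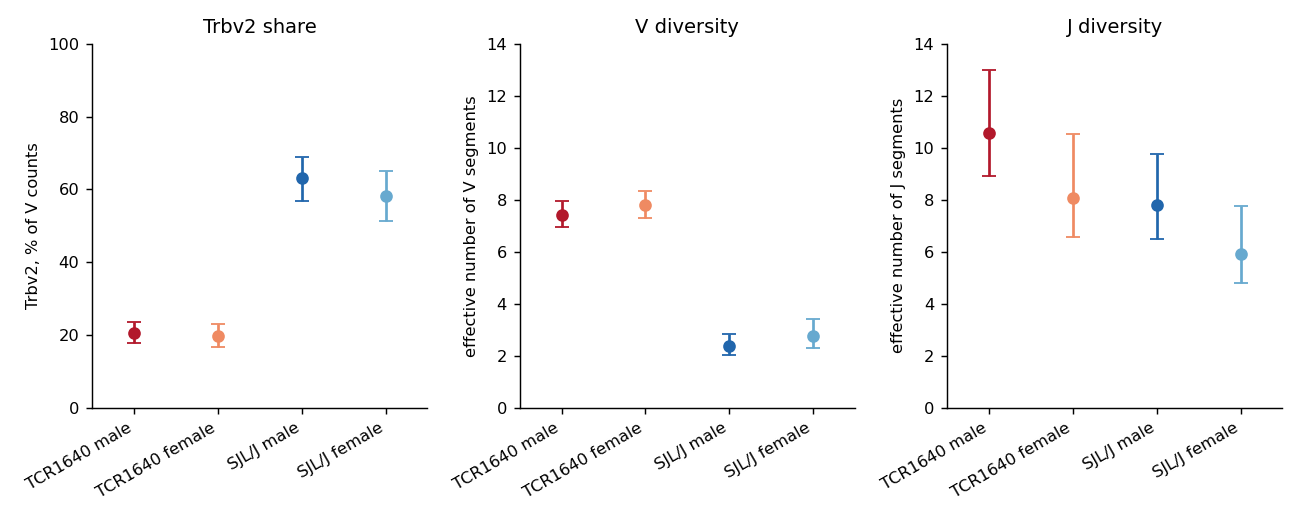
Trbv2 share of V counts in percent (left) and effective number of V (middle) and J segments (right) in the 4 libraries, with 95% intervals for counting error. For V the libraries labelled TCR1640 lie at 7.42 and 7.80 and those labelled SJL/J at 2.37 and 2.75, while for J the values run from 10.6 to 5.93.

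A long stretch of V segments had no counts in any library. All 16 V segments annotated between Trbv5 and Trbv18 (chr6:41066879-41163556 on GRCm38) had 0 counts in all 8 columns, as did the pseudogenes Trbv27 and Trbv28. In all, 18 of 53 segments were listed at 0, against 37.6% of all genes. SJL mice are known to lack a stretch of V segments of the Vβ5, Vβ8, Vβ9, Vβ11, Vβ12 and Vβ13 families. The 9 segments of that list (Trbv12-1, Trbv12-2, Trbv13-1, Trbv13-2, Trbv13-3, Trbv14, Trbv15, Trbv16 and Trbv17) all lay inside this stretch, and all 13 V segments annotated as genes outside the list had counts. A count of 0 allows a share of up to 0.376% and 0.496% of V counts in the male and female libraries labelled TCR1640, and up to 1.205% and 1.39% in those labelled SJL/J. The 5 listed members of the Trbv12 and Trbv13 families are 88.8% to 91.8% identical to their nearest V exon, so reads could be split or dropped there. For the 4 others on the list the identity is 60.4% to 73.2%, within the 56.8% to 74.8% of V segments that did have counts.

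A further 9 V segments had fewer than 50 counts over all 8 columns. Trbv21 had the most, with 18 and 9 counts in the male and female libraries labelled TCR1640 and 1 and 4 in those labelled SJL/J. Trbv4, Trbv5, Trbv18, Trbv20, Trbv22, Trbv23, Trbv25 and Trbv30 had 6 to 19 counts in all. Trbv4 and Trbv5 overlap 5830405F06Rik on the same strand, so their counts are uncertain.

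J segments supply the end of the junction and the Phe-Gly-X-Gly turn that follows it. The 5 J segments with at least 10% of J counts in some group are printed because their shares are described next: Trbj1-1 at chr6:41533864-41533911, Trbj1-2 at chr6:41534001-41534048, Trbj1-3 at chr6:41534323-41534376, Trbj2-1 at chr6:41542754-41542803 and Trbj2-3 at chr6:41543223-41543271, all on the plus strand of GRCm38. Capitals mark the codons of that turn, searched as TTT or TTC followed by GGN, NNN and GGN on the coding strand only.
Trbj1-1: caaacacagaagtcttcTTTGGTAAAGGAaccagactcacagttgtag
Trbj1-2: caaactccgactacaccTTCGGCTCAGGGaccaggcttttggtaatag
Trbj1-3: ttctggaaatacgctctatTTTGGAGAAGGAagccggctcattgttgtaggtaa
Trbj2-1: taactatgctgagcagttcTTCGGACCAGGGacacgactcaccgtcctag
Trbj2-3: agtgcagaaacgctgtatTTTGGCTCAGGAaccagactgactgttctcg
The motif was present in 11 of the 14 J segments, which are 46 to 54 bases long, and absent from the annotated letters of Trbj1-6, Trbj1-7 and Trbj2-6.

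J counts were few, at 139 and 99 in the male and female libraries labelled TCR1640, against 110 and 124 in those labelled SJL/J, and all 14 segments had counts in each library. Their summed level was 13.9 and 12.5 CPM, against 14.3 and 14.8 CPM. The log2 ratio of TCR1640 over SJL/J labels was 0.00 in males (-0.37 to 0.38) and -0.23 in females (-0.63 to 0.16), both with equality inside the interval. Trbj2-1 led the J counts in 3 of the 4 libraries. It had 10 and 17 counts in the TCR1640-labelled male columns and 8 and 11 in TCR1640 female, against 14 and 11 in SJL/J male and 20 and 20 in SJL/J female. Its share was 19.4% (13.2 to 27.0) and 19.2% (11.97 to 28.3) in the male and female libraries labelled TCR1640, against 22.7% (15.3 to 31.7) and 32.3% (24.1 to 41.2) in those labelled SJL/J. These 4 intervals overlap, while the log2 ratio of TCR1640 over SJL/J labels was -0.98 in females (-1.85 to -0.16) and -0.22 in males (-1.06 to 0.62).

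Trbj2-3 had 3 and 6 counts in the TCR1640-labelled male columns and 11 and 10 in TCR1640 female, against 7 and 11 in SJL/J male and 14 and 7 in SJL/J female. The male TCR1640-labelled columns lay below all others, and it was the 1 segment past 2-fold lower in the male strain comparison (-1.33, -2.67 to -0.10). With either column alone it had too few counts for the rule and could not be called. Trbj1-1 held 10.1% and 14.1% of J counts in the male and female libraries labelled TCR1640, against 10.0% and 7.26% in those labelled SJL/J. Trbj1-2 held 10.1% and 3.03%, against 5.45% and 8.87%. Trbj1-3 held 7.19% and 7.07%, against 13.6% and 10.5%. Each of these rests on 15 counts or fewer per library, and none of the 5 J segments tested was called by edgeR (adjusted p from 0.241 to 0.860 for the strain labels).

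**Figure D4:**
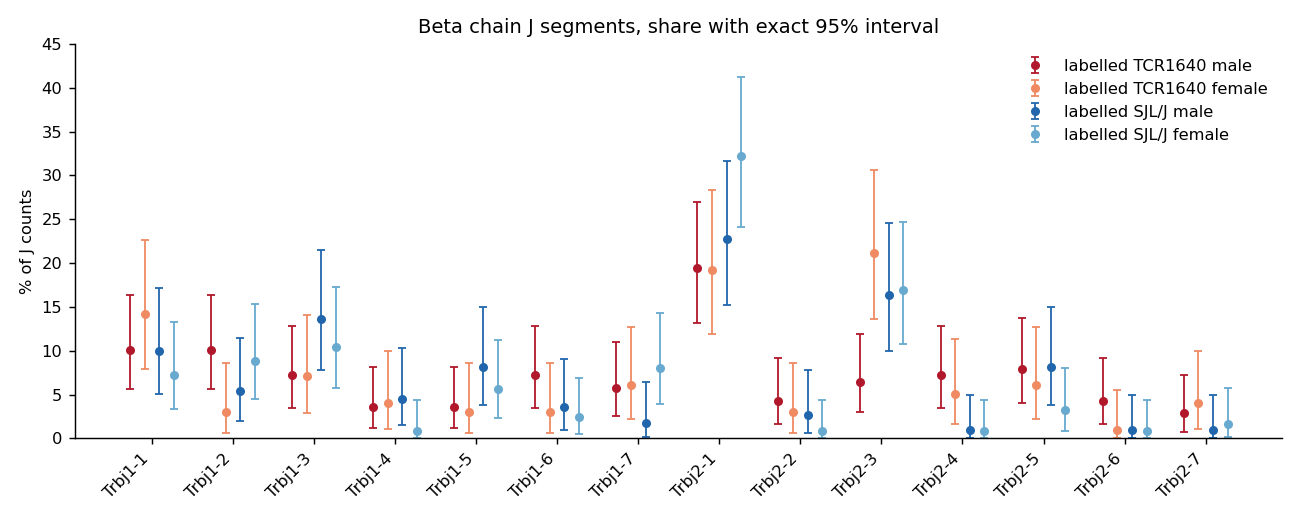
Shares of J counts in the 14 J segments, in percent, for the 4 libraries, with exact 95% intervals. Trbj2-1 holds 19.2% to 32.3%, and the intervals of the libraries overlap for it.

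The effective number of J segments was 10.6 (8.92 to 13.0) and 8.08 (6.56 to 10.5) in the male and female libraries labelled TCR1640, against 7.81 (6.51 to 9.75) and 5.93 (4.79 to 7.77) in those labelled SJL/J. Intervals of the strain labels overlapped in each sex. Trbj1-6, Trbj1-7 and Trbj2-6, which lack the motif, had 20, 26 and 9 counts over all 8 columns. Whether counts over these short segments follow the J usage of the cells was not tested. The J compositions were 25.4% apart between strain labels in males and 26.9% in females, and 19.9% to 24.8% apart between the columns of a group, which hold fewer counts each. Segments of the downstream Trbj2 cluster took 52.5% and 59.6% of J counts under the TCR1640 labels, in males and females, and 52.7% and 56.5% under the SJL/J labels.

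The D segments, which form the core of the junction, are short and gave almost no counts. They are printed to show how short the counted features are: Trbd1 lies at chr6:41533201-41533212 and Trbd2 at chr6:41542163-41542176, and they share most of their letters, so their counts are uncertain.
Trbd1: gggacagggggc
Trbd2: gggactgggggggc
Trbd1 had 2 and 0 counts in the male and female libraries labelled TCR1640, against 5 and 3 in those labelled SJL/J. Trbd2 had 10 and 5, against 4 and 2. No difference was detectable at this depth.

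The constant regions carried most of the beta chain counts and encode the part of the chain that pairs with the alpha chain and CD3. Trbc1 had 604 and 699 counts in the TCR1640-labelled male columns and 492 and 509 in TCR1640 female, against 395 and 465 in SJL/J male and 395 and 394 in SJL/J female. Trbc2 had 823 and 843, then 604 and 671, in male and female columns labelled TCR1640, against 459 and 491, then 439 and 472, in those labelled SJL/J. Both regions together stood at 297 and 287 CPM in the male and female libraries labelled TCR1640, against 236 and 203 CPM in those labelled SJL/J. Trbc2 rose by a log2 change of 0.53 under the TCR1640 labels (SE 0.13, edgeR adjusted p = 0.000244). Trbc1 rose by 0.35 (SE 0.13, edgeR adjusted p = 0.0257), a call that was lost with DESeq2, with no filter on low counts and with either column of each group alone. Trbc2 took 56.1% (54.3 to 57.9) and 56.0% (54.0 to 58.1) of constant region counts in the male and female libraries labelled TCR1640, against 52.5% (50.2 to 54.8) and 53.6% (51.2 to 56.0) in those labelled SJL/J. The first exons of Trbc1 and Trbc2 differ by 1 base in 375, so the split between them rests on reads over the later exons and is uncertain.

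V segments took 20.4% and 20.3% of all beta chain counts in the male and female libraries labelled TCR1640, against 11.4% and 10.6% in those labelled SJL/J. There were 0.269 and 0.266 V counts for each constant region count under the TCR1640 labels, in males and females, against 0.138 and 0.127 under the SJL/J labels. V and constant region counts thus did not keep 1 ratio across the labels, and males and females of a label lay close together. J counts for each constant region count ran the other way. They were 0.047 and 0.043 in the male and female libraries labelled TCR1640, against 0.061 and 0.073 in those labelled SJL/J.

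The CD3 chains travel to the cell surface with the receptor, and their counts differed between the labels too. Of 8 T cell markers 3 rose under the TCR1640 labels and 0 fell by edgeR's test: Cd3d (log2 change 0.40), Cd3e (0.69) and Cd3g (0.54). The summed level of the 8 was 1801 and 1641 CPM in the male and female libraries labelled TCR1640, against 1517 and 1361 CPM in those labelled SJL/J. In bulk RNA, fewer T cells and less receptor RNA per cell cannot be told apart. For each 100 counts of Cd3d, Cd3e, Cd3g and Cd247, a scale chosen after seeing the data, the constant regions had 29.3 and 30.3 counts in the male and female libraries labelled TCR1640, against 29.7 and 28.3 in those labelled SJL/J. On this scale Trbv2 had 1.62 and 1.58 counts, against 2.57 and 2.10, and the other V segments 6.26 and 6.46, against 1.51 and 1.498. The log2 ratio of Trbv2 was then -0.67 (-0.99 to -0.34) in males and -0.41 (-0.78 to -0.03) in females. Both intervals excluded equality, unlike those on TMM-scaled library sizes, and the direction for Trbv2 in females depended on the scale. The 7 other V segments kept ratios of 1.38 to 3.46. Trbc1 stood at -0.13 (-0.26 to -0.01) in males and 0.02 (-0.12 to 0.16) in females. Trbc2 stood at 0.08 (-0.04 to 0.19) in males and 0.16 (0.04 to 0.29) in females.

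**Figure D5:**
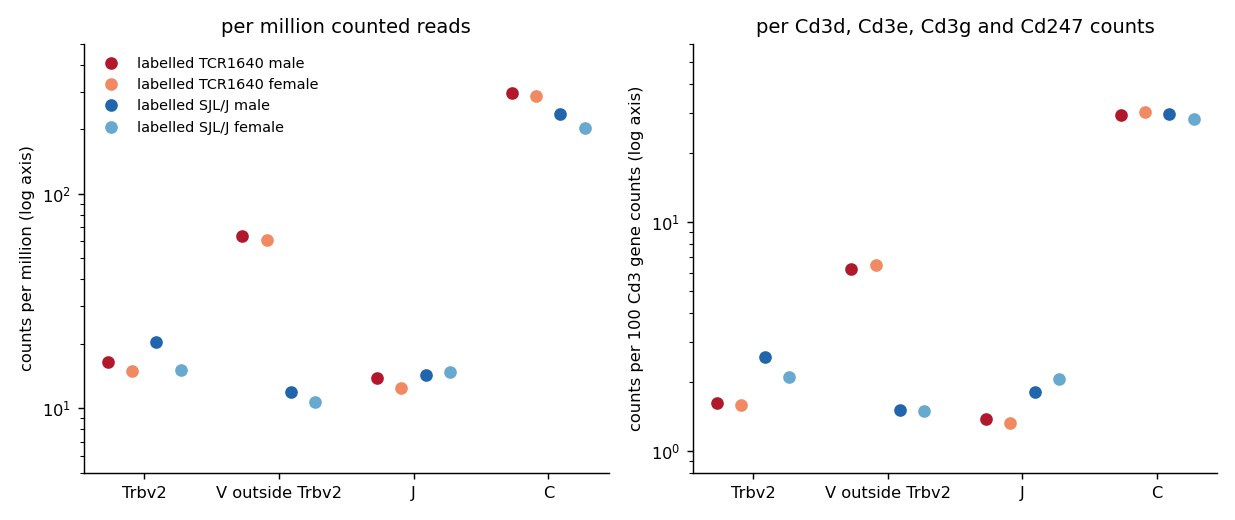
Trbv2, the other V segments, J segments and constant regions in the 4 libraries, in CPM and in counts per 100 Cd3 gene counts, on log axes; each point is the sum of 2 columns. Constant regions lie at 28.3 to 30.3 per 100 Cd3 counts in all libraries, while the V segments outside Trbv2 lie at 6.26 and 6.46 under TCR1640 labels and at 1.51 and 1.498 under SJL/J labels.

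Among 18 genes of the receptor complex, its signalling and V(D)J recombination, 14 were tested, of which 7 rose under the TCR1640 labels and 4 fell by edgeR's test. Their median log2 change was 0.29, against 0.01 over all genes tested. Trac, the constant region of the alpha chain that pairs with beta, fell by 0.33 on the log2 scale (SE 0.13, edgeR adjusted p = 0.0317), the opposite direction to Trbc2. Cd8a rose by a log2 change of 2.69 and Cd4, the coreceptor of helper T cells, fell by 0.52. Rag1 and Rag2, the recombinase subunits, had 0 to 3 counts in each library. Dntt, another recombination gene of the list, had 69 and 45 counts in the male and female libraries labelled TCR1640. In those labelled SJL/J it had 22 and 32 (log2 change 0.94, edgeR adjusted p = 0.0133). The counts of the beta segments thus moved beside a difference in coreceptors, whose part in the V counts was not tested.

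Markers of other cells also differed between the labels. Of 4 gamma-delta receptor constant genes, which mark T cells with another receptor, the 2 tested fell under the TCR1640 labels, and all 4 together stood at 8.20 and 10.5 CPM in the male and female libraries labelled TCR1640, against 38.9 and 46.1 CPM in those labelled SJL/J. Of 6 B cell markers, 3 of 5 tested rose and 1 fell, with summed levels of 46.2 and 43.6 CPM against 34.9 and 28.4 CPM. Of 6 myeloid markers, 3 of 5 tested fell, with 134 and 131 CPM against 217 and 158 CPM. The 3 that fell were the neutrophil genes S100a8 and S100a9 and the lysozyme gene Lyz2. S100a8 had 0 counts in both libraries labelled TCR1640, against 171 and 65 in the male and female libraries labelled SJL/J. Csf1r, a receptor of macrophages and most of the TCR1640-labelled sum, stood at 131.5 and 127 CPM, against 116 and 119 CPM (log2 change 0.17, edgeR adjusted p = 0.357), and Itgam had a log2 change of 1.10 (edgeR adjusted p = 0.0659). The macrophage gene Adgre1 had 0 or 1 count in each library. Of 3 NK cell markers the 1 tested rose, with 20.0 and 27.2 CPM against 11.7 and 10.1 CPM, nearly all of it in Klrk1, while Ncr1 and Klrb1c had 0 to 4 counts in each library. The part of these cells in the segment levels was not tested.

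Between males and females no beta chain segment passed the test. The additive edgeR fit called 0 of the 15 tested segments for sex, against a background of 0.139% of genes higher and 0.962% lower in males. No segment had an unadjusted p under 0.05, and DESeq2 called 0. The V compositions of the sexes were 10.7% apart in the libraries labelled TCR1640 and 12.2% in those labelled SJL/J, beside 9.24% to 17.6% between the columns of a group, which hold fewer counts each. By the 2-fold rule, 0 segments of 14 were higher in males among the libraries labelled TCR1640 (background 1.16%) and 1 was lower (1.94%). That 1 was Trbj2-3, at -1.56 (-2.87 to -0.37). With either column alone it had too few counts for the rule and could not be called. Among the libraries labelled SJL/J the counts were 0 higher of 10 (1.1%) and 0 lower (1.5%).

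Some single V segments, and both constant regions under the SJL/J labels, differed between the sexes by more than counting error and less than 2-fold. How many of all genes differ in this way was not counted. Among libraries labelled TCR1640, the log2 ratio of male over female was 0.87 for Trbv26 (0.18 to 1.59), 0.40 for Trbv1 (0.04 to 0.77) and -0.80 for Trbv24 (-1.36 to -0.26). Among libraries labelled SJL/J it was 0.41 for Trbv2 (0.06 to 0.76), 0.21 for Trbc1 (0.07 to 0.35) and 0.15 for Trbc2 (0.02 to 0.28). Their intervals cover counting error only, and there is 1 sample on each side.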

How the data were processed

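The authors deposited 1 table of raw read counts, with Ensembl genes in rows and 8 columns. Per the submitters' processing notes, bcl2fastq 2.17, Bowtie2, HTSeq and the mm10 build were used. Per the labels' protocols, libraries were made from 500 ng of RNA with a KAPA kit for stranded mRNA. Neither the counting's strand setting nor its annotation release is stated in the sources used here. Symbols, positions and sequences came from GENCODE M21 (GRCm38, of which mm10 is another name), and older V names from RefSeq synonyms.

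Groups and replicate numbers came from the sample titles, which give TCR or WT, the sex and a number. Libraries titled TCR were taken as TCR1640 and those titled WT as SJL/J. Nothing says that the 2 columns of a group came from separate animals, and they were summed. Shares within V, D, J and C have exact Clopper-Pearson 95% intervals, and a count of 0 allows 3 counts of the total. Ratios of 2 groups use TMM-scaled library sizes, exact conditional intervals and a floor of 3 counts over a group at 0. Reads carry no molecular identifiers, so intervals cover counting error only. The additive fit used edgeR 4.0.16 under R 4.3.3 (TMM, filterByExpr, quasi-likelihood F test, two-sided Benjamini-Hochberg adjusted p over 17261 genes, threshold 0.05) on 4 summed samples, with a common coefficient of variation of 9.78%. DESeq2 1.42.0, other size factors, no filter and single columns were alternatives. On simulated data its strain term recovered 72% to 81% of 2-fold and 93% to 96% of 4-fold changes, with at most 13 false calls in a run and 17161 to 17183 genes tested.

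Named segments are V segments with at least 5% of V counts in any group, J segments with at least 10% of J counts, and all D and C segments. Low-count V segments are listed for completeness, and the genes named from the lists were chosen after their values were seen. The members and gene lists were chosen with earlier results of these data known.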

Additional observations from a re-analysis of the deposited data

How the results depend on the processing

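The lead of Trbv2 under SJL/J labels and the lower effective number of V segments there held under every alternative run except leaving Trbv2 out. Dividing by exon length moved the Trbv2 share to 15.8% and 15.02% in the male and female libraries labelled TCR1640 and to 54.3% and 49.99% in those labelled SJL/J. The effective number of V segments, in the order TCR1640 male, TCR1640 female, SJL/J male and SJL/J female, was 9.19, 9.39, 4.21 and 5.01 as the exponential of the Shannon entropy, and 6.82, 7.20, 5.64 and 7.5 without Trbv2. It was 6.54 and 6.59 under the TCR1640 labels without pseudogenes, and 3.04 and 3.55 under the SJL/J labels per exon length. Single columns gave 6.94 to 7.88 for TCR1640 males. The exponential for J in SJL/J females was 8.13.

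Without a minimum count, 11 segments were past 2-fold higher in the male strain comparison, 1 was higher in males among libraries labelled TCR1640 and 1 lower in males among those labelled SJL/J. With single columns, the lower calls of Trbj2-3 became 0 in both comparisons, because it then had too few counts to be called. In the female strain comparison 0 or 1 segments were then lower, and 0 or 1 were higher in males under each strain label. Relative to Cd3 counts, a scale chosen after seeing the data, Trbv2 was at -0.67 in males and -0.41 in females, both with intervals that excluded equality. Trbc1 in males was at -0.13, and the intervals of Trbc1 in females and Trbc2 in males then included equality. Apart from these low counts of Trbj2-3, the causes were not tested.

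The additive fit called 7 to 9 segments higher and 0 lower for strain, and 0 for sex, under every setting. The members were not always the same. With no filter on low counts the 9 included Trbv21 (log2 change 2.22, edgeR adjusted p = 0.0369) and not Trbc1. Over all genes it called 2305 higher and 2267 lower for strain, against 649 and 695 with DESeq2, and 1472 to 1678 higher with single columns. For sex, it called 24 higher and 166 lower, against 4 and 2 with DESeq2, 17 and 101 with no filter, and 17 and 95 or 4 and 8 with single columns. As 8 separate columns it called 3347 and 3202 for strain, and 381 and 788 for sex. With the replicate number as a block it called 3278 and 3165 for strain, with 9 segments higher, and 252 and 621 for sex. Columns of the same number did not deviate together after scaling (correlations of -0.02 to 0.03 over 6 pairs). Column 2 held 1.039 to 1.046 times the total counts of column 1 in all 4 groups, a shared offset that scaling removes. Whether columns of the same number share more than a number was therefore not settled.

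With 216 to 798 V counts and 99 to 139 J counts per library, small differences in J shares were not detectable.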
